A study of Mus musculus with 18 samples.

Results

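The mitochondrial respiratory chain was examined in whisker pads of adult mice of both sexes 1, 3, or 7 days after transection of 2 facial nerve branches, the buccal and the superior marginal, on the right. Each sample was a punch through skin and muscle at the rostral end of the pad. Members were the protein-coding genes whose symbols start with Nduf, Sdh, Uqcr, Cox4, Cox5, Cox6, Cox7, Cox8, or Atp5, and the mt-Nd, mt-Co, mt-Cytb, and mt-Atp genes of the mitochondrial genome, a rule that sorts genes by symbol. This gave 111 gene IDs with 110 symbols, among 35150 genes: 84 nuclear-encoded subunit IDs, 13 mitochondrially encoded subunits, and 14 assembly factors or related genes. Of the 111 IDs, 108 passed the filter on low values over all days, and a second ID of Atp5o, Cox7b2, and Cox8c did not. In each of 9 mice the left pad served as sham, with an incision that was closed again over an uncut nerve, and there were 3 mice, and so 3 denervated and 3 sham samples, at each day. Strain and genotype of these mice are not given in the sources used here. Right side and lesion coincide in every mouse and cannot be told apart.

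The respiratory chain passes electrons from NADH (complex I, NADH dehydrogenase) and succinate (complex II) through ubiquinone, complex III, and cytochrome c to oxygen at complex IV (cytochrome c oxidase), and ATP synthase (complex V) uses the resulting proton gradient. Complexes I, III, IV, and V are built from subunits of both the nuclear and the mitochondrial genome, while complex II is wholly nuclear-encoded. Several complex IV subunits come as isoform pairs, with one form typical of heart and skeletal muscle (Cox6a2, Cox7a1, Cox8b) and one found widely (Cox6a1, Cox7a2, Cox8a).

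Promoters are shown for the isoform pairs Cox7a1/Cox7a2 and Cox8b/Cox8a, and for Ndufa8, because Cox7a1 and Ndufa8 were the members that passed the test at day 7. The sequences are RefSeq windows of build GRCm38.p6, cut back to the longest stretch before the start that holds no exon of the GENCODE M21 annotation, written 5′ to 3′, with CG dinucleotides in capitals. Their positions are chr7:30183921-30184143 (plus strand) for Cox7a1, chr9:79759879-79760103 (minus strand) for Cox7a2, chr7:140900447-140900696 (minus strand) for Cox8b, chr19:7217617-7217866 (minus strand) for Cox8a, and chr2:36049407-36049457 (minus strand) for Ndufa8.
Cox7a1: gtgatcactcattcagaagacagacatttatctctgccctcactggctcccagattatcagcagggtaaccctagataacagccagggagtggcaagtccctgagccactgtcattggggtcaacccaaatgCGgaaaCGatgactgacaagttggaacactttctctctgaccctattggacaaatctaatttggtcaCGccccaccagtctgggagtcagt
Cox7a2: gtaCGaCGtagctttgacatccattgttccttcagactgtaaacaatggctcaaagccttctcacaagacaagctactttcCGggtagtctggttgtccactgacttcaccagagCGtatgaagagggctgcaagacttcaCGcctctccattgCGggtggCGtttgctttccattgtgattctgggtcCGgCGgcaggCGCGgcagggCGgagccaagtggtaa
Cox8b: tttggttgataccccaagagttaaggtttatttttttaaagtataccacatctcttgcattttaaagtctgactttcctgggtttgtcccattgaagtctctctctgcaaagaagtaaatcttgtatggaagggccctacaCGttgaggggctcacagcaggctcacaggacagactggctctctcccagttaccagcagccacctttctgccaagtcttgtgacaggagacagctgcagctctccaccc
Cox8a: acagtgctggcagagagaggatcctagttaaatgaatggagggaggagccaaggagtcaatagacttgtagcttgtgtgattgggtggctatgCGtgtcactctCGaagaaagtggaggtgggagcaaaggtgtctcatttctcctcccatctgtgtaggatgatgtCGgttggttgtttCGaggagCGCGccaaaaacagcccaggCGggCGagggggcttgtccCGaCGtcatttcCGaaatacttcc
Ndufa8: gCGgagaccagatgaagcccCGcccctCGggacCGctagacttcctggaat

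In the full windows of 300 bases, 250 before and 50 after the start, Cox8b held 2 CG dinucleotides and Cox7a1 7, against 19 in Cox8a and 20 in Cox7a2. Across the 78 of 97 nuclear-encoded members with a window the median was 19.5, and it was 7 over all 32851 windows, and Cox8b was the lowest of the 78. GCGCA directly followed by TGCGC, core letters bound by the respiratory factor NRF1, stood on either strand in 5 of 66 subunit windows (7.58%) and in 0.971% of all windows. For CCGGAAGT, a site of ETS factors such as GABP, the shares were 7.58% and 3.89%, for TCAAGGTCA, an estrogen-related receptor site, 3.03% and 0.423%, and for AAGATGGCG, a YY1 site, 9.09% and 1.40%. The muscle E-box CAGCTG was in 6 subunit windows (9.09%), among them those of Cox8b and Ndufa8, and in 16.3% of all. A MEF2 pattern was in none of the 66 and in 3.19% of all windows. These motif counts describe letters only.

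Transcript levels are TPM (each transcript's share of a library after division by its length) that the authors also normalized between samples, summed over the transcripts of a gene. The respiratory chain made up a large part of the RNA: its genes held 16.8% to 28.4% of the summed TPM of a sample, with a median of 21.8%. Most of this came from the 13 mitochondrially encoded genes, whose sum ran from 117221 to 264172 TPM, while the 84 nuclear-encoded subunits together ran from 24777 to 57405. The ratio of the former to the latter was between 3.26 and 5.48. These sums leave out Gm29216, a nuclear copy of mitochondrial DNA that shares sequence with mt-Co1 and was listed at 15506 to 37143 TPM. Where its reads came from was not tested, and counting them as mitochondrial would raise the sums, shares, and ratios. The smallest steps between low values gave an estimated depth of 10.3 M to 32.1 M reads per sample.

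Samples differed in their levels of muscle fibre genes. The mean log2(TPM + 0.5) of 20 muscle fibre genes was 7.05 on the sham side and 7.65 on the denervated side of mouse 1 of day 1, below the 8.46 to 9.82 of the other 16 samples, and that mouse also had the lowest sums of nuclear-encoded subunits, 24777 and 27026 TPM. All 6 samples of day 7 lay at the high end, between 9.45 and 9.82. Fewer fibres in a punch and less RNA per fibre cannot be told apart in such bulk samples. The lesion was visible in the libraries: the 6 genes of the denervation check (Myog, Runx1, Ncam1, and the acetylcholine receptor genes Chrna1, Chrnd, and Chrng) were called higher in denervated samples at days 3 and 7, 6 of 6 at each, and 0 of 5 tested at day 1.

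**Figure D1:**
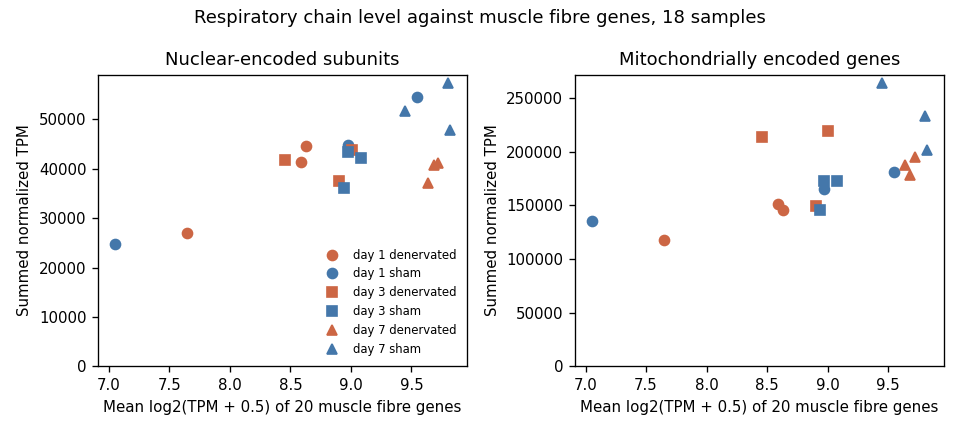
The x axis is the mean log2(TPM + 0.5) of 20 muscle fibre genes and the y axis the summed normalized TPM of nuclear-encoded subunits (left) or mitochondrially encoded genes (right); each point is 1 of 18 samples, with color for side and shape for day. The 2 samples of mouse 1 of day 1 stand apart at the left, and at day 7 the denervated samples lie below the sham samples at like values of this mean. The summed TPM of the same 20 genes at day 7 was 37467 to 43071 in sham and 33473 to 37203 in denervated samples. The part of muscle content was not tested.

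Of the mitochondrially encoded genes mt-Co2, mt-Atp6, and mt-Co3 were highest, with means of 25683, 22664, and 22570.0 TPM over the 18 samples, followed by mt-Co1 (18066) and mt-Atp8 (17792). The 7 complex I genes and mt-Cytb were lower, from mt-Nd1 at 12840.0 and mt-Cytb at 12295 through mt-Nd4 (10276), mt-Nd3 (10017), mt-Nd6 (9592), mt-Nd2 (9121), and mt-Nd4l (5464) to mt-Nd5 at 3024. Neighbours in this order overlapped widely between samples, for example mt-Co2 with 16249 to 37171 and mt-Atp6 with 15175 to 32147 TPM. Several of these values are uncertain: at least 98.1% of the 31-base words of mt-Atp6, mt-Co2, mt-Co3, mt-Nd3, and mt-Nd4l also occur in nuclear copies of mitochondrial DNA, and Gm29216, a nuclear copy that holds 29.6% of the words of mt-Co1, was listed at a mean of 25648 TPM. In addition mt-Nd6 lies opposite other mitochondrial genes, and mt-Atp8 and mt-Nd4l overlap mt-Atp6 and mt-Nd4, so that reads without strand, or from the overlap, cannot be assigned to 1 gene.

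Among nuclear-encoded subunits the most abundant member was Ndufa3 in complex I (649 TPM), the iron-sulfur subunit gene Sdhb in complex II (281), Uqcrh in complex III (1071), Ndufa4, a cytochrome c oxidase subunit despite its name, in complex IV (1426), and Atp5b, the catalytic beta subunit, in complex V (2379). The muscle-type Cox8b, Cox6a2, and Cox7a1 had means of 1259, 784, and 750.4 TPM, above the 398, 334, and 568 of Cox8a, Cox6a1, and Cox7a2. The isoforms Cox4i2 and Ndufa4l2 were minor, at 11.1 against 1112 TPM for Cox4i1 and at 43.5 against 1426 for Ndufa4. The testis-type Cox6b2 was at 20.7, Cox7b2 at 0.590, and Cox8c at 0 TPM. Assembly factors had means between 2.69 TPM for Sdhaf3 and 51.2 for Sdhaf4, while Cox7a2l, a supercomplex factor, had 253. For Cox7c, Ndufb4, and Atp5g2 a processed pseudogene was listed above the gene itself, Gm12338 at 1051 against 722 TPM for Cox7c, Ndufb4c at 321 against 104 for Ndufb4, and Gm10175 at 601 against 59.9 for Atp5g2, so the split of their reads is uncertain.

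Denervated and sham samples were compared by limma on log2(TPM + 0.5), with p-values adjusted by Benjamini-Hochberg over all tested genes and 0.05 as the threshold. A pair of members were lower on the denervated side at day 7, Cox7a1 and Ndufa8, and none was called at day 1, at day 3, or over all days. At day 7, 0.511% of the 15081 tested genes were called lower and 1.01% higher, against 2 and 0 of 108 members. The shares of all genes called in either direction were 3.1% over all days, 0% at day 1, and 1.45% at day 3. At an unadjusted p under 0.05, 7 members of 108 passed over all days, 0 at day 1, and 7 at day 3, beside 14.7%, 4.29%, and 14.7% of all tested genes. At day 7, 52 members passed at that level and each of them was lower, against 4.83% of all tested genes.

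Cox7a1, on chromosome 7 (30184144 to 30186078, plus strand), encodes the muscle form of a small complex IV subunit. On the sham side of mice 1, 2, and 3 it was at 310.2, 1056, and 1222 TPM on day 1, 555, 870.2, and 785 on day 3, and 992, 1372, and 1155 on day 7. The denervated side had 411, 948, and 785 TPM on day 1, 556, 622, and 505 on day 3, and 391, 461, and 511 on day 7. The groups overlapped at days 1 and 3, and at day 7 every denervated sample was below every sham sample. The means at day 7 were 1173 ± 190.4 TPM (SD, n = 3) in sham and 454 ± 60.3 (n = 3) in denervated samples, so that the denervated side had 38.7% of the sham level. The log2 fold change was -1.36 (SE 0.17), with an adjusted p of 0.0124 by limma. Over all days it was -0.62 (SE 0.26), lower in 7 of 9 mice, with an adjusted p of 0.258 by limma, which missed the threshold.

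Ndufa8, on chromosome 2 (36036326 to 36049406, minus strand), encodes an accessory subunit of complex I. Its sham levels in mice 1, 2, and 3 were 150.0, 308, and 389 TPM on day 1, 219.6, 285, and 282 on day 3, and 319.6, 343, and 318 on day 7. Its denervated levels were 175, 229, and 239 TPM on day 1, 175, 211, and 211 on day 3, and 189.8, 208, and 210.4 on day 7. Denervated samples were lower in 3 of 3 mice at days 3 and 7, without overlap between the groups, and in 2 of 3 mice at day 1. The day 7 means were 327 ± 14.1 and 203 ± 11.3 TPM (SD, n = 3 each), a log2 fold change of -0.69 (SE 0.10) with an adjusted p of 0.0299 by limma. Over all days the change was -0.46 (SE 0.14), lower in 8 of 9 mice, and the adjusted p by limma was 0.0971. No 31-base word of Ndufa8 or Cox7a1 occurs in another gene of the table.

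Both calls rested on all 3 mice of day 7. Without mouse 1, 2, or 3 of day 7 no member was called, and of all tested genes 0, 0, and 58 were called lower. The adjusted p of limma became 0.177, 0.24, and 0.0663 for Cox7a1 and 0.383, 0.416, and 0.127 for Ndufa8, with log2 fold changes from -1.46 to -1.26 and from -0.73 to -0.65. Of 16 alternative settings, Cox7a1 passed the threshold in 12 and Ndufa8 in 8, and in 1 fit of all 18 samples their adjusted p values by limma were 0.134 and 0.233. When both sides of an animal were paired by a block for the mouse, 8 members were called lower at day 7, against 0.749% of all tested genes: Cox7a1 and Ndufa8, the complex I genes Ndufa5, Ndufb10, and Ndufs7, the complex III gene Uqcrq, Cox8b, and the complex I assembly factor Ndufaf5. Their blocked log2 fold changes lay between -1.36 for Cox7a1 and -0.60 for Ndufb10. The block also gave 3 lower calls over all days, against 1.65% of all tested genes, a share of the members near that background: Ndufaf5 at -0.49 (SE 0.09), Ndufa8 at -0.46 (SE 0.09), and Ndufb10 at -0.37 (SE 0.08). Without mouse 1 of day 1, whose samples were lowest in the muscle fibre genes, 8 members were called lower over all days in the unpaired fit, against 2.23% of all tested genes: Atp5a1, Atp5g1, Cox7a1, Ndufa8, Ndufaf5, Ndufb10, Sdhb, and Sdhd.

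**Figure D2:**
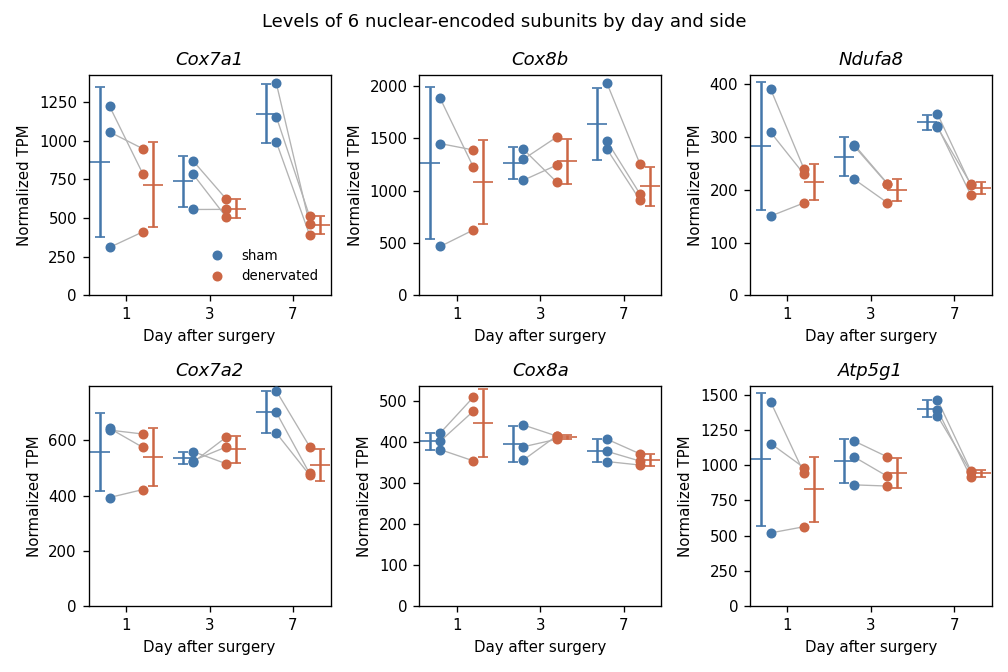
The y axes give normalized TPM and the x axes the day for Cox7a1, Cox8b, Ndufa8, Cox7a2, Cox8a, and Atp5g1; points are samples, grey lines join the sides of a mouse, and bars are the mean ± SD of 3 samples. At day 7 the denervated points of Cox7a1, from 391 to 511, lie below the sham points, from 992 to 1372.

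Beyond these calls, nearly all nuclear-encoded subunits had lower values on the denervated side at day 7, most by less than the 2 that passed the test. The median log2 fold change of its 81 tested subunits was -0.34, beside 0.04 over all tested genes, and 80 of 81 were below 0, against 43.9% of all tested genes. In complexes I to V the medians were -0.36, -0.35, -0.31, -0.29, and -0.35. In 74 of 81 subunits the level was lower in all 3 mice, against 16.9% of all tested genes, and in 51 the groups did not overlap, against 7.06%. The exception above 0 was Ndufa4l2, at 0.22 (SE 0.20) with an adjusted p of 0.711 by limma. These subunits share the same samples and are not independent of each other.

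Examples that missed the threshold at day 7 came from every complex. Atp5g1, which encodes the c subunit of the ATP synthase ring, had 1393, 1463, and 1349 TPM in sham and 914, 961, and 953 in denervated samples of mice 1, 2, and 3, a log2 fold change of -0.57 (SE 0.10) with an adjusted p of 0.0594 by limma. For Sdhb of complex II the samples had 339, 374, and 346 and 251, 238, and 252 TPM, at -0.51 (SE 0.10) and an adjusted p of 0.0783 by limma. In both genes every denervated sample was below every sham sample. Ndufs7, an iron-sulfur subunit of complex I, had the lowest value of that complex, -0.82 (SE 0.28), with overlap between the groups and an adjusted p of 0.297 by limma. Ndufa5 of complex I was at -0.75 (SE 0.17), Uqcrq of complex III at -0.68 (SE 0.17), and Cox8b at -0.64 (SE 0.20), with adjusted p values by limma of 0.105, 0.154, and 0.243.

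**Figure D3:**
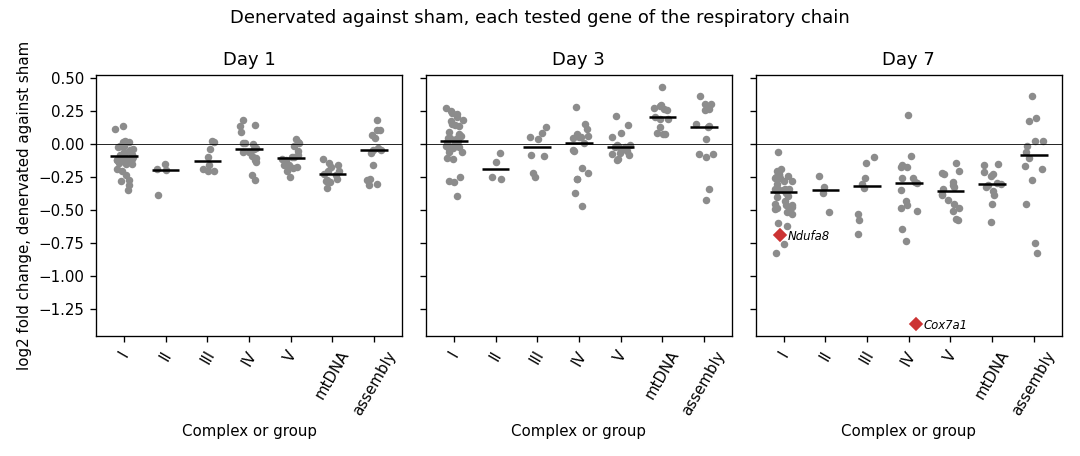
Each point is the log2 fold change of 1 tested gene, denervated against sham, at day 1, 3, or 7, grouped by complex for nuclear-encoded subunits, with mitochondrially encoded genes (mtDNA) and assembly factors apart; black lines are medians and red diamonds the genes with an adjusted p under 0.05. The medians of the 5 complexes lie between -0.19 and 0.02 at days 1 and 3 and between -0.36 and -0.29 at day 7.

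The summed level of the nuclear-encoded subunits at day 7 was 52344 ± 4778 TPM (SD, n = 3) in sham and 39646 ± 2236 (n = 3) in denervated samples, and was lower in 3 of 3 mice. The log2 ratio of denervated to sham within a mouse averaged -0.40 ± 0.09 (SD, n = 3). By complex the sums in sham and denervated samples at day 7 were 14320.3 ± 1126 and 10832 ± 704 TPM for complex I, 1189.6 ± 29.9 and 925 ± 58.4 for complex II, and 5296 ± 555 and 4035 ± 273 for complex III. Complex IV gave 14990.1 ± 1694 and 11018 ± 639, and complex V 16548 ± 1459.8 and 12836 ± 816 TPM (SD, n = 3 each). In all 5 complexes the highest denervated sum was below the lowest sham sum. The difference went with a high sham level at day 7: the nuclear-encoded sum was 41349.5 ± 15168 TPM in sham samples of day 1 and 40600.4 ± 3930.0 of day 3, and 37677 ± 9382 and 41084 ± 3249.8 in denervated samples of those days, so that the denervated mean of day 7 lay among these and the sham mean above them.

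Markers of other cell types were compared between the sides at day 7 as well, and the muscle and neutrophil lists held called genes. The summed TPM of the 20 muscle fibre genes was 37467 to 43071 in sham and 33473 to 37203 in denervated samples, that of 12 keratinocyte genes 6643 to 7653 and 7637 to 9913, that of 8 macrophage genes 200.1 to 562 and 392 to 814, and that of 5 neutrophil genes 42.5 to 242 and 1354 to 2654. The 7 hair follicle genes had 933 to 3393 and 1040.1 to 2403, the 6 fibroblast genes 865 to 1639 and 1045 to 1933, the 6 adipocyte genes 488 to 774 and 452 to 799, and the 3 brown adipocyte genes 45.0 to 92.6 and 42.6 to 101. Of the muscle fibre genes Actn3 and Neb were called higher, by 1.64 on the log2 scale for Actn3, and the glycolytic and energy genes Ckm and Eno3 lower, at -1.12 and -1.10. The median of the 20 was -0.04. Of the 4 tested neutrophil genes only S100a8 was called higher, at 4.33, while the lowest of the 4 was at 0.56. Which cells gave the S100a8 value was not tested. The other 6 lists held no called gene, and 1.01% of all tested genes were called higher and 0.511% lower. Their median log2 fold changes were 0.68 for macrophage, 0.58 for keratinocyte, and 0.45 for fibroblast genes, beside 0.04 over all tested genes. In these 3 lists 0 of 8, 3 of 12, and 0 of 6 genes were below 0, against 43.9% of all tested genes. Adipocyte, brown adipocyte, and hair follicle genes had medians of 0.22, 0.09, and -0.09. No marker gene was at 0 in all 18 samples. When all values were rescaled to the mean log2 level of the muscle fibre genes, the day 7 median of the nuclear-encoded subunits was -0.34 and Cox7a1 stayed called at -1.35 (adjusted p = 0.0188 by limma), while Ndufa8 at -0.68 was not (adjusted p = 0.164). The 20 muscle fibre genes moved both ways at day 7, with called genes in each direction and a median of -0.04. This scaling could therefore shift day 7 values little, and it does not measure muscle content. The part of muscle content and of the immune and skin genes in the respiratory chain values was not tested.

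The 13 mitochondrially encoded genes were also below 0 at day 7, against 43.9% of all tested genes, with a median log2 fold change of -0.30. Of these, 10 of 13 were lower in all 3 mice, against 16.9% of all tested genes, but none passed the threshold. The 13 genes share the same samples and are not independent of each other at any day. Complex I genes spanned the widest range, from mt-Nd2 at -0.59 (SE 0.17) and mt-Nd1 at -0.45 (SE 0.15) to mt-Nd5 at -0.15 (SE 0.18), with adjusted p values by limma of 0.206, 0.282, and 0.8. The complex IV genes mt-Co1, mt-Co2, and mt-Co3 were at -0.32, -0.31, and -0.35, mt-Cytb at -0.22, and mt-Atp6 and mt-Atp8 at -0.29 and -0.16. Their sum was 232977 ± 31246 TPM in sham and 187181 ± 8203 in denervated samples (SD, n = 3 each). The log2 ratio of these sums within a mouse was -0.31 ± 0.18 (SD, n = 3), a wider spread than that of the nuclear-encoded sum.

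No member was called at days 1 and 3, and at day 3 the nuclear-encoded median was near 0 and the mitochondrially encoded median above 0. At day 1 the nuclear-encoded median was -0.09 and the mitochondrially encoded median -0.23, with all 13 mitochondrially encoded genes below 0 (against 48.4% of all tested genes), 11 of them lower in all 3 mice (against 12.1%), and the lowest adjusted p among them 0.999 by limma. At day 3 the nuclear-encoded median was -0.00521, with 37 of 81 subunits above 0, while all 13 mitochondrially encoded genes were above 0, against 47.3% of all tested genes, from 0.08 for mt-Nd5 to 0.44 for mt-Nd3, with a median of 0.20. Mouse 3 of day 3 stood against mice 1 and 2: the mt-Co1 of the latter was 16431 and 18765 TPM in sham and 21013 and 20819.7 in denervated samples, while mouse 3 had 17809.8 and 14879. None of the 13 was higher in all 3 mice of day 3, against 20.6% of all tested genes. The day 1 values depend on scaling: relative to the muscle fibre genes the medians of day 1 became 0.14 for nuclear-encoded and 0.00670 for mitochondrially encoded genes, beside 0.22 over all tested genes.

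**Figure D4:**
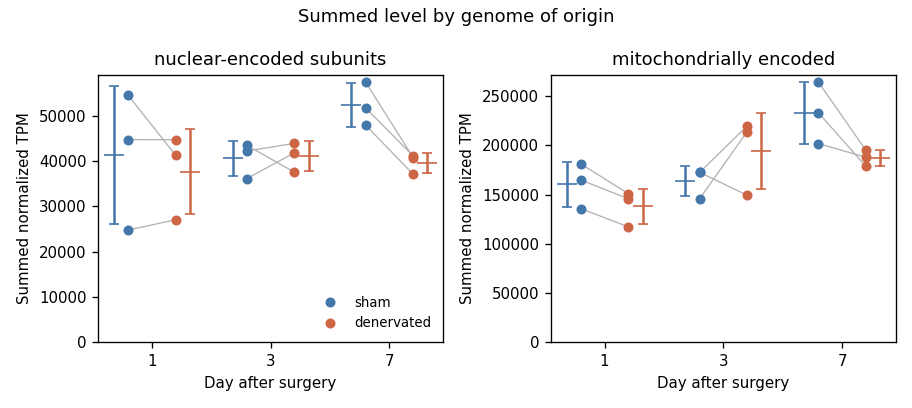
The y axes give the summed normalized TPM of nuclear-encoded subunits (left) and mitochondrially encoded genes (right) by day; points are samples, grey lines join the sides of a mouse, and bars are the mean ± SD of 3 samples. Denervated sums are below sham sums in 3 of 3 mice at day 7 in both panels, and in the right panel mice 1 and 2 of day 3 rise from sham to denervated.

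Within complex IV the muscle-type isoforms were lower relative to their partners on the denervated side at day 7. The log2 ratio of Cox7a1 to Cox7a2 at day 7 was 0.66, 0.97, and 0.57 in the sham samples of mice 1, 2, and 3 and -0.28, -0.06, and -0.18 in the denervated samples, so that Cox7a1 was the more abundant form on each sham side and the less abundant on each denervated side. The difference within a mouse was -0.91 ± 0.14 (SD, n = 3) on day 7, -0.45 ± 0.20 on day 3, and -0.10 ± 0.39 on day 1, and it was below 0 in 3, 3, and 2 of 3 mice. For Cox8b to Cox8a it was -0.56 ± 0.06 at day 7, below 0 in 3 of 3 mice, and -0.06 ± 0.21 at day 3. For Cox6a2 to Cox6a1 it was -0.48 ± 0.23 at day 7, also below 0 in 3 of 3 mice, and 0.05 ± 0.10 at day 3. In mouse 1 of day 1, the lowest in the muscle fibre genes, Cox7a1 to Cox7a2 was -0.34 on the sham side. The part of the muscle fibre genes in these ratios was not tested, nor were the ratios themselves.

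The partner genes had smaller differences at day 7. Cox7a2 was at -0.46 (SE 0.14), Cox8a at -0.09 (SE 0.11), and Cox6a1 at -0.25 (SE 0.10), while Cox6a2 was at -0.73 (SE 0.29), and the adjusted p values by limma were 0.238, 0.798, 0.393, and 0.376. The ratio of Cox4i2, a subunit isoform known from lung, to Cox4i1 differed by 0.10 ± 0.24 at day 7. That of Ndufa4l2, a hypoxia-responsive paralog, to Ndufa4 differed by 0.48 ± 0.18 at day 7 and by -0.75 ± 0.37 at day 3 (SD, n = 3 each).

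**Figure D5:**
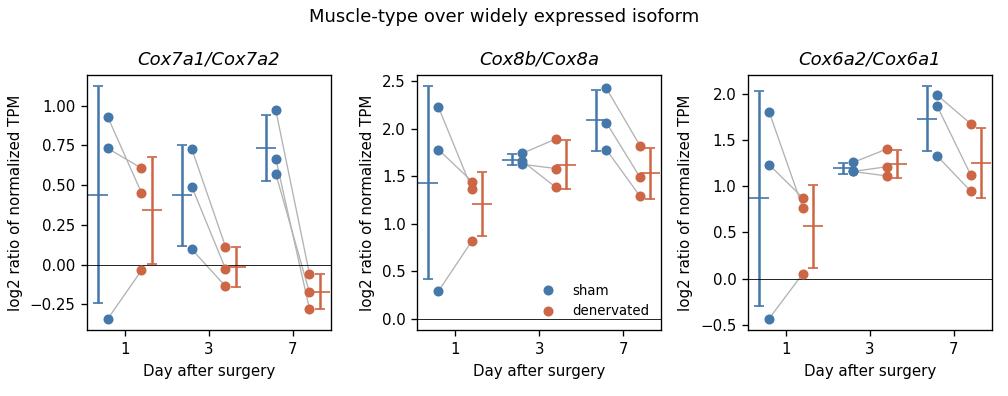
The y axes give the log2 ratio of normalized TPM of Cox7a1 to Cox7a2, Cox8b to Cox8a, and Cox6a2 to Cox6a1 by day; points are samples, grey lines join the sides of a mouse, and bars are the mean ± SD of 3 samples. At day 7 every line runs down from sham to denervated, and for Cox7a1 to Cox7a2 the denervated points are below 0.

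Assembly factors, which help build the complexes without being part of them, and the related genes counted with them had median log2 fold changes of -0.04, 0.13, and -0.08 on days 1, 3, and 7, beside 0.01, -0.01, and 0.04 over all tested genes. At day 7 9 of 14 were below 0, against 43.9% of all tested genes. None was called, where 0.511% of all tested genes were called lower and 1.01% higher. Ndufaf5 and Ndufaf6, factors of complex I, were lowest at day 7, at -0.82 (SE 0.15) and -0.75 (SE 0.15) with adjusted p values by limma of 0.0644 and 0.0777, and Ndufaf5 was lower in 9 of 9 mice over all days (log2 fold change -0.49 (SE 0.13), adjusted p = 0.0588 by limma). Atp5s, a factor related to ATP synthase, was at 0.36 (SE 0.16) and Cox7a2l at 0.02 (SE 0.11). The difference between the subunits and the assembly factors was not tested.

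Among nuclear-encoded subunits over all days, the lowest and highest of complex I were Ndufa8 at -0.46 and Ndufa7 at 0.04. In complex II they were Sdhb at -0.32 and Sdhc at -0.21, and in complex III Uqcrc1 at -0.23 and Uqcrb at -0.11. In complex IV they were Cox7a1 at -0.62 and Cox8a at 0.04, and in complex V Atp5g1 at -0.31 and Atp5mpl at -0.01. The median over nuclear-encoded subunits was -0.15 and that over mitochondrially encoded genes -0.08, with 77 of 81 and 13 of 13 below 0, beside 48.2% of all tested genes. Relative to the muscle fibre genes these medians became -0.00260 and 0.0692, and that over all tested genes 0.14.

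Whether the effect of denervation differed between days was tested as an interaction in a fit of all 18 samples. No member was called for any pair of days, where 0.122% (day 3 against 1), 0.163% (day 7 against 1), and 0% (day 7 against 3) of all tested genes were. At an unadjusted p under 0.05 the members passed 2, 1, and 6 times of 108, beside 9.22%, 7.14%, and 6.86% of all tested genes. For Cox7a1 the effect at day 7 minus that at day 1 was -1.23 (SE 0.58), with an adjusted p of 0.705 by limma, and for Ndufa8 it was -0.38 (SE 0.36) (adjusted p = 0.872). The calls at day 7 are therefore not shown to differ from the other days. This fit held no term for the mouse, so its SEs include the spread between mice.

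Levels over time were compared within each side, in fits of 9 samples whose days are different mice. On the sham side no member was called between any pair of days, where 0.0818%, 0.00682%, and 0.0136% of all tested genes were for day 3 against 1, 7 against 1, and 7 against 3, and 0, 14, and 12 members had an unadjusted p under 0.05 by limma, against 10.9%, 14.4%, and 10.9% of all tested genes. At day 7 against day 3 the sham groups did not overlap in 69 of 108 members, higher at day 7 in each, against 8.45% of all tested genes. These were all 13 mitochondrially encoded genes, with a median of 0.52, 52 nuclear-encoded subunits, and 4 assembly factors, and the muscle fibre genes had a median of 0.56 in the same comparison. The medians between days 1 and 7 were 0.40 for nuclear-encoded and 0.54 for mitochondrially encoded genes on the sham side, and 0.09 and 0.40 on the denervated side. The muscle fibre genes moved more, by a median of 1.17 on the sham and 1.24 on the denervated side, and relative to them all 4 of these medians were below 0, at -0.77 and -0.63 on the sham and -1.30 and -0.99 on the denervated side. This scaling moved the median of all tested genes as well, to -1.12 and -1.29. Directions between days thus depend on the scaling.

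On the denervated side 3 members were called higher at day 3 than at day 1, beside 8.04% of all tested genes. At day 7 against day 1, 7 were called higher and 1 lower, beside 13.6% and 7.65% of all tested genes. In each case the share of members called was below that of all tested genes. None was called between days 3 and 7 (0.211% of all tested genes). Sdhaf4, an assembly factor of the flavoprotein of complex II, had 30.7, 34.4, and 36.2 TPM in the denervated samples of day 1, 49.5, 52.5, and 52.1 on day 3, and 55.9, 59.4, and 66.4 on day 7. Its log2 fold change was 0.60 (SE 0.10) at day 3 and 0.83 (SE 0.10) at day 7 against day 1, with adjusted p values of 0.00968 and 0.00157 by limma. The sham samples had 31.4, 45.5, and 51.3 TPM on day 1 and 68.2, 77.8, and 58.9 on day 7, so its level was higher at day 7 on both sides without overlap, and the sham difference of 0.69 (SE 0.21) was not called (adjusted p = 0.226 by limma). Ndufaf1, a complex I assembly factor, was also higher at days 3 and 7, at 0.56 and 0.83, and Ndufaf4 was higher at day 3, at 0.44, but at -0.05 relative to the muscle fibre genes. Both comparisons share the samples of day 1.

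The other members that rose between days 1 and 7 on the denervated side were mt-Nd4l at 0.86, Ndufb5 at 0.54, Uqcrc2 at 0.52, Uqcrfs1, the Rieske iron-sulfur protein of complex III, at 0.52, and Sdhd, a membrane anchor of complex II, at 0.46. Relative to the muscle fibre genes all 7 members that were higher at day 7, Sdhaf4 and Ndufaf1 included, were below 0, between -0.93 and -0.53, less far than the median of all tested genes at -1.29. Cox6a1 fell, from 329, 432, and 423 TPM at day 1 to 251, 268, and 243 at day 7, by a log2 fold change of -0.63 (SE 0.16) with an adjusted p of 0.0242 by limma. It was below 0 under each of the 4 scalings tried. The number of members called, 8 at day 7 against day 1, was 2 without mouse 3 of day 1 and 5 without mouse 2 of day 3. It was 2 without mouse 1 of day 7 and 3 without mouse 3 of day 7. Of all tested genes 11.3%, 16.9%, 10.2%, and 15.7% were called in either direction in these fits, beside 21.3% with all mice.

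Related mitochondrial genes outside the name rule were examined with the same fits. The lists here and in the next paragraph stand beside these shares of all tested genes. At day 7, 0.511% were called lower and 1.01% higher (median 0.04), and at day 3 0.442% and 1.01%. Over all days 1.18% were called lower and 1.92% higher. Of the citric acid cycle genes, 0 higher and 1 lower of 14 tested (median -0.17) were called at day 7, and the gene was Idh2, mitochondrial isocitrate dehydrogenase, at -1.05 (SE 0.14) with an adjusted p of 0.0163 by limma and at -0.96 (SE 0.16) over all days (adjusted p = 0.00227). Of the genes of ATP export and energy transfer, 0 higher and 2 lower of 10 tested (median -0.29) were called, Ckmt2, the mitochondrial creatine kinase of muscle, at -1.28 (SE 0.16) and Slc25a4, the adenine nucleotide carrier of muscle, at -0.70 (SE 0.11), with adjusted p values by limma of 0.0125 and 0.0399. Fatty acid oxidation had 0 higher and 1 lower of 14 tested (median -0.17), the dehydrogenase gene Hadh at -0.64 (SE 0.11), and Hadh was also called at day 3, at -0.76 (SE 0.10). Over all days Hadh and Acadm were called lower, at -0.48 and -0.44.

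Perm1, a muscle regulator of mitochondrial genes, was called lower over all days, at -1.03 (SE 0.16) with an adjusted p of 0.00165 by limma, and was the only one of 19 regulators called there, and at day 7 there were 0 higher and 0 lower of 19 tested (median -0.06). Assembly factors outside the name rule had 1 higher and 0 lower of 35 tested (median -0.02) at day 7, the gene being Uqcc1, a complex III factor, which was higher at day 3 at 1.64 (SE 0.17), at day 7 at 0.69 (SE 0.12), and over all days at 0.90 (SE 0.20). The mitochondrial ribosome had 0 higher and 1 lower of 78 tested (median -0.13), namely Mrpl34 at -0.59, and over all days Mrpl40 and Mrpl17 were higher, at 0.30 and 0.31, and Mrpl34 lower, at -0.37. Pyruvate dehydrogenase genes had 0 higher and 0 lower of 10 tested (median 0.02), and chain carriers and subunits outside the name rule 0 higher and 0 lower of 20 tested (median -0.22). At the other end of these lists, the genes with the highest log2 fold change at day 7 were Sucla2 of the citric acid cycle at 0.05, Vdac2 of ATP export at 0.17, Acsl1 of fatty acid oxidation at 0.51, Esrrg of the regulators at 0.52, Pdk4, a kinase that inhibits pyruvate dehydrogenase, at 0.73, and Coq10b of the chain carriers at 0.32, none of them called. The lowest were Perm1 at -1.02, Etfb, a subunit of the electron transfer flavoprotein, at -0.60, the pyruvate carrier gene Mpc2 at -0.56, and the assembly factor gene Ecsit at -0.41, also not called.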

How the data were processed

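RNA from 18 biopsies of 9 mice was sequenced as TruSeq libraries on a NextSeq 500. Per the study's methods and the submitters' processing notes, the authors converted reads with bcl2fastq 2.17.1.14, deduplicated them (ParDRe), cut adapters (Fastp), and aligned them to GRCm38 transcripts with Kallisto 0.43.1, and the deposited signal is Kallisto TPM normalized between samples by Sleuth, with sums of 833186 to 1143839 per sample. Because these values are relative, a large change in a few abundant transcripts moves all others. Here the 113194 transcripts were joined to genes with the GENCODE M21 annotation (98.5% matched) and summed. Genes with TPM of at least 1 in 47% of the samples of a comparison were tested with limma 3.58.1 in R 4.3.3 (lmFit, eBayes with trend, two-sided, log2(TPM + 0.5), Benjamini-Hochberg over all tested genes, 0.05), and fold changes are on that scale, which understates changes of low genes.

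Sides were compared over all days (with day as a term) and at each day, the effect between days as an interaction, and days within each side. Alternatives were other pseudocounts, filters, scalings, and transcript sets, no trend, 1 fit of 18 samples, the mouse as a block, each mouse left out, and pseudogene copies added, the last chosen after the data were seen. For day 7 the mouse numbers in the deposited column names differ from those in the labels, and columns were matched by day, side, and library number. Both namings put the same pairs of sides together and give the same groups, so mouse numbers of day 7 are names only. The sides of a mouse come from the same animal, and their deviations from the group means correlated at 0.16 to 0.57 in all 9 mice, so the block pairs samples of 1 animal. The test was also run on simulated data. The members and lists were chosen with earlier results of these data known. Named were members past the threshold, all mitochondrially encoded genes, the isoform pairs, and the most abundant and the extreme nuclear-encoded subunits of each complex. Called and extreme genes of the other lists, between the sides, were named as well. Ndufa5, Ndufs7, Uqcrq, Atp5g1, Sdhb, Ndufaf5, Ndufaf6, Ndufaf1, Ndufaf4, Atp5s, members called only between days or in an alternative, and assembly factors given by level were picked after their values were seen. Copies were found by shared words of 31 bases. Promoters and their build are from RefSeq. Python 3.11.15, numpy 2.4.6, pandas 2.3.3, and matplotlib 3.10.9 were used.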

Additional observations from a re-analysis of the deposited data

Results flagged for a closer look

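The ratio of Ndufa4l2 to Ndufa4 moved in opposite ways at days 3 and 7. The log2 ratio was -5.50, -4.53, and -3.95 in sham and -6.13, -4.99, and -5.11 in denervated samples of mice 1, 2, and 3 of day 3, lower on the denervated side in 3 of 3 mice. At day 7 it was -5.36, -5.57, and -6.11 and -4.80, -5.28, and -5.51, higher on the denervated side in 3 of 3 mice. The difference of denervated and sham sides was thus 1.23 higher at day 7 than at day 3 on the log2 scale, which drew attention because every mouse of one day moved against every mouse of the other, and the difference between days was not tested on the ratio. Ndufa4l2 itself was at -0.47 (SE 0.44) at day 3 and 0.22 (SE 0.20) at day 7, with adjusted p values by limma of 0.701 and 0.711. Its interaction between days 3 and 7 was 0.69 (SE 0.73), with an adjusted p of 0.91 by limma. Groups of 3 samples are too small for a check of single outlying samples.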

How the results depend on the processing

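Of 252 counts of members called under an alternative, 220 stayed within 1.5 times the reported count. These include counts of 0 that stayed at 0. No member was called over all days, at days 1 and 3, for any interaction, or between days on the sham side. The 220 are therefore no measure of how stable the comparisons with calls were, which are given below. Of 218 medians 212 moved by less than the spread between mice, as did 35 of 36 sums and all 30 isoform ratios. Over all days, where no member was called, equal-sum rescaling with and without mitochondrially encoded genes gave 2 calls each. The mouse as a block gave 3, and leaving out a mouse 0 to 8, the 8 without mouse 1 of day 1. Of all tested genes 2.86% and 2.61% were called in either direction under those scalings. The share was 3.5% with the block and 1.54% to 4.68% without a mouse. At day 7 the 2 calls became 4 with median-of-ratios rescaling and with protein-coding transcripts only, 1 with either equal-sum rescaling, with muscle fibre rescaling, and without trend, 8 with the mouse as a block, and 0 in 1 fit of all 18 samples, where between 0.325% (that fit) and 0.749% (the block) of all tested genes were called lower, and they became 0 to 0 when a mouse of day 7 was left out. Cox7a1 had an adjusted p by limma of 0.134 in that fit of 18 samples. The block changed no other call of a member between the sides, and no pairing could be fitted between days, since each mouse has 1 day. On the denervated side the 3 calls of day 3 against 1 became 0 with equal-sum and with muscle fibre rescaling and 1 to 5 when a mouse was left out (1 without mouse 3 of day 1 or any mouse of day 3, 5 without mouse 3 of day 7). The 8 calls of day 7 against 1, beside 21.3% of all tested genes in either direction, became 5 with TPM above 0 as the filter (13.9%). They became 4 with median-of-ratios rescaling (22.4%) and with equal-sum rescaling without mitochondrially encoded genes (19.5%). Protein-coding transcripts only gave 14 (23.0%), and leaving out a mouse 2 to 9 (10.2% to 21.5%). Muscle fibre rescaling gave 104 lower calls for day 7 against 1 and 90 for day 7 against 3 on that side, where it also called 79.3% and 43.1% of all tested genes lower, so these counts are no result about the members. It moved the median of all tested genes to 0.18 at day 3 and, between days 1 and 7, to -1.12 in sham and -1.29 in denervated samples. It also moved the nuclear-encoded median to 0.20 at day 3, -0.77 between days 1 and 7 in sham, and -1.30 in denervated samples, and the mitochondrially encoded median to 0.00670 at day 1 and to -0.63 and -0.99 between days 1 and 7. The paired log2 ratio of the mitochondrially encoded sum at day 1 became 0.0162. Calls reversed in sign under it were Ndufaf4 at -0.0486 for day 3 against 1, and for day 7 against 1 Ndufaf1 at -0.54, Ndufb5 at -0.85, Sdhaf4 at -0.54, Sdhd at -0.93, Uqcrc2 at -0.87, Uqcrfs1 at -0.87, and mt-Nd4l at -0.53. The causes of these changes were not tested. Adding pseudogene copies, an alternative chosen after the data were seen, kept every count of calls within 1.5 times the reported one. With 3 mice a day, differences of the size seen in most subunits at day 7 were not past the threshold over all genes, and reads shared with nuclear copies limit the mitochondrially encoded values.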
